A study of Mus musculus with 6 samples.

Results

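The genes described here code for esterases and oxidoreductases that handle drugs, alcohols, aldehydes, steroids and retinoids. They comprise the carboxylesterases (*Ces*), the alcohol dehydrogenases (*Adh*), the aldehyde dehydrogenases (*Aldh*), the aldo-keto reductases of family 1 (*Akr1*), the flavin-containing monooxygenases (*Fmo*) and the aldehyde oxidases (*Aox*). They were chosen by gene symbol, pseudogenes left out, and not by any measured value, though with earlier results of these data known. On the arrays 82 probes carried 68 such genes, and 66 of these genes were among the 17658 named genes whose signal was well above background on 1 or more of the arrays. The genes *Fmo6* and *Fmo9* were not well above background on any array. The families *Ces*, *Adh*, *Aldh*, *Akr1*, *Fmo* and *Aox* gave 17, 5, 20, 15, 5 and 4 of the 66 genes.

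The study asked how fluorene-9-bisphenol (BHPF), a substitute for bisphenol A in plastics, changes gene expression in oestrogen-responsive animals. Immature female CD-1 mice received BHPF in peanut oil at 50 mg kg-1 bw d-1 or peanut oil alone by oral gavage for 3 days. RNA from 3 mice was pooled per group, and the liver, ovary and uterus pools of the BHPF and control mice were each hybridized to 1 one-colour Agilent array. Every group is thus 1 pool on 1 array, and their number limits the precision. All 6 arrays shared a slide and a scan. Control arrays filled its first row and BHPF arrays its second, so that treatment and position on the slide cannot be told apart. The age at collection is given as postnatal day 24. The age at the first dose is given as postnatal day 21 in 1 place and 24 in another.

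Carboxylesterases split ester and amide bonds of drugs and of stored lipids, and the liver holds them in the endoplasmic reticulum. Alcohol dehydrogenases and aldehyde dehydrogenases act in sequence on ethanol and on retinol, which the second step turns into retinoic acid, while aldo-keto reductases run in the opposite direction on aldehydes and on the keto groups of steroids and prostaglandins. Flavin-containing monooxygenases add oxygen to nitrogen and sulphur atoms, and aldehyde oxidases, which need a molybdenum cofactor, oxidize aldehydes and nitrogen heterocycles.

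The level of a gene is the log2 intensity of its probes minus the 75th percentile of all 55681 probes of the same array, so a level of 0 is the intensity at that percentile. That intensity was 3449 in control and 3298 in BHPF liver, 7503 in control and 6389 in BHPF ovary, and 5336 in control and 4534 in BHPF uterus. Signals well above background came from 64% of the probes in control and 61.4% in BHPF liver, 74.6% in control and 69.4% in BHPF ovary, and 68.9% in control and 64.8% in BHPF uterus. The ratio of a gene is the difference in level between the BHPF and the control array of a tissue, BHPF minus control, on the log2 scale. Replicate spots of a probe give such a ratio an SD of 0.136 in liver, 0.132 in ovary and 0.138 in uterus, which leaves out the variation between pools of mice. Where 1 array of a pair was not well above background, its value was replaced by the lowest level so called on that array, unless the signal of the gene itself was higher. Such a ratio is a bound and is written with "at least". No test within a tissue was possible with 1 array a group, and a ratio of at least 2-fold is called higher or lower.

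Marker genes of each organ had the pattern that the labels name. Of 14 ovary markers 13 were higher in ovary than in liver and 13 were higher than in uterus (adjusted p below 0.05 and at least 2-fold), among them *Inha*, an inhibin subunit of granulosa cells. All 10 uterus markers, such as *Msx1*, were higher in uterus than in ovary and higher than in liver. All 10 smooth muscle markers were higher in uterus than in liver. Of 24 liver cell markers 22 were higher in liver than in ovary and all 24 higher than in uterus. Their summed linear level, in units of the 75th percentile, was 754 in control and 723 in BHPF liver, 15.3 and 16.6 in ovary, and 7.10 and 61.2 in uterus. The BHPF uterus array therefore carried more of the liver transcripts than the control uterus array did.

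Most of the 66 genes were liver genes. In a model fitted across all genes, in which both arrays of a tissue count (n = 2 a tissue), 46 genes (69.7%) were higher in liver than in ovary, against 20.8% of all genes, and 12 (18.2%) were higher in ovary than in liver, against 23.7%. Against uterus, 43 (65.2%) were higher in liver, where 19.1% of all genes were, and 6 (9.09%) were higher in uterus, where 22.2% of all genes were. Between uterus and ovary 15 were higher in uterus (22.7%, against 12.7% of all genes) and 12 in ovary (18.2%, against 10.3%), a majority that turned to ovary with the 50th percentile, with quantile scaling, with adjusted p alone and without the BHPF uterus array (13 and 18). It was a tie without the variance trend and 26 and 12 without the control uterus array. Liver stood above both other tissues for 26 genes, without a further difference between these, and 11 more had the order liver, uterus, ovary. These patterns held 39.4% and 16.7% of the 66 genes, against 11.8% and 1.97% of all genes. Of the 11, *Fmo4* was not well above background in uterus or ovary. For *Ces1f* and *Aldh7a1* the difference between uterus and ovary was lost under several alternatives. On all 6 arrays 44 of the 66 genes were well above background.

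**Figure D1:**
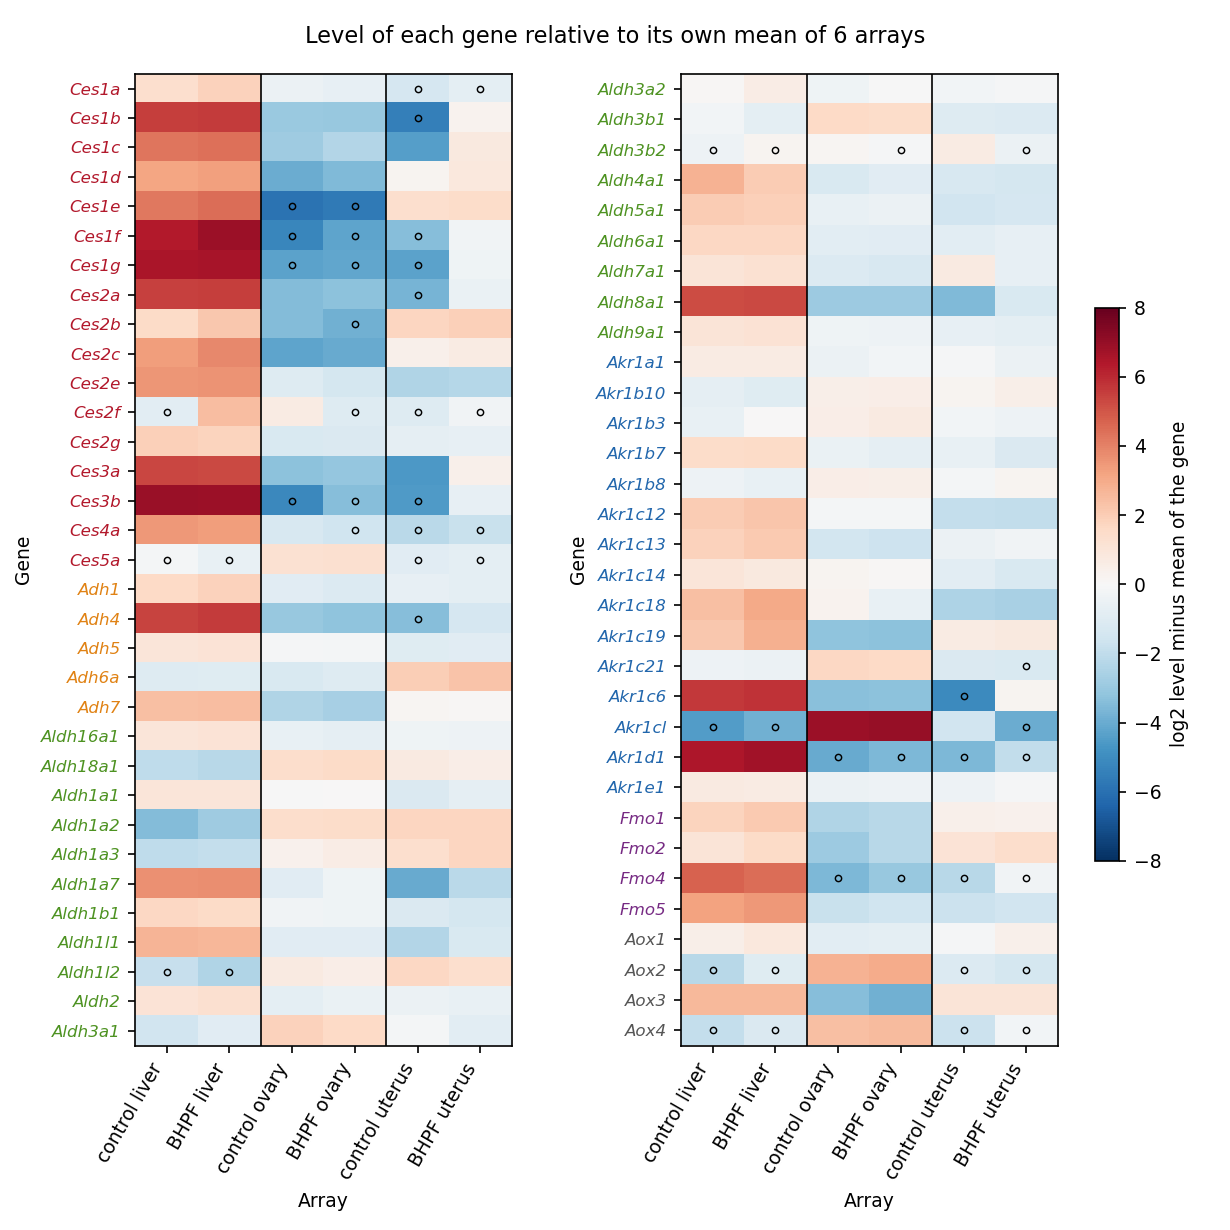
Level of 65 of the 66 genes on the 6 arrays, drawn as the log2 level minus the mean of that gene over the 6 arrays, with gene names coloured by family and a circle where the gene was not well above background. Most genes are red on both liver arrays, and a group of carboxylesterases with *Akr1c6* is dark blue on the control uterus array and pale on the BHPF uterus array.

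In liver 1 of 60 evaluated genes was at least 2-fold higher on the BHPF array (1.67%, against 3.28% of all genes), and none was at least 2-fold lower, against 1.63%. In ovary none of 60 was higher, against 0.503% of all genes, and none lower, against 0.675%. In uterus 13 of 58 were higher (22.4%, against 2.29% of all genes) and none lower, against 0.858%. Of these 13 ratios 8 are bounds, and 5 of the 47 genes measured on each array of the uterus pair were higher. With normexp, with own signals in place of bounds, with all probes averaged or with probes in place of genes, 1 or 2 were lower. An effect of BHPF common to the 3 tissues was tested in the same model with limma. The 3 organs were collected from the mice of each group, so the arrays of a treatment may share animals, while the test takes the tissues as independent. It passed at an adjusted p under 0.05 for none of the 66 genes, as for 0.0% of all genes, while 8 of the 66 genes (12.1%) had an unadjusted p under 0.05, against 815 of all genes (4.62%). The smallest adjusted p among the 66 was 0.8.

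The direction of every uterus ratio rests on which file is taken. The scanner files, as named on deposit, were used. In the table of processed values that the authors also deposited, the column headed control uterus holds the values of the scanner array named BHPF uterus and the reverse, with 99.1% of 38802 values within 0.001 of each other after a constant was subtracted. Read as headed, that table turns the sign of each uterus ratio. The text of the paper reports biotransformation genes as up-regulated in the uterus, which is the direction of the scanner files. It also reports *Sprr2* genes as down-regulated there, and Q-RT-PCR results that for most genes tested were similar to the arrays. The levels of the *Sprr2* genes on these arrays are not given here. Which source names the uterus arrays rightly was not tested. The liver and ovary columns of that table hold the values of the scanner arrays of the same name.

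**Figure D2:**
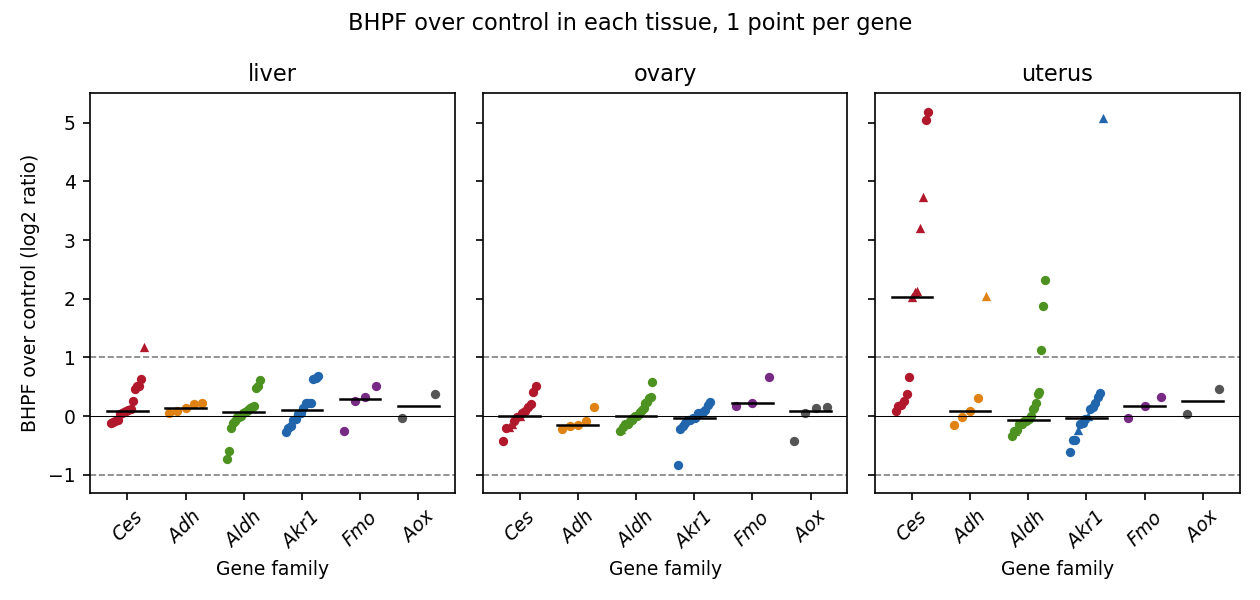
Ratio of the BHPF over the control array (log2) in liver, ovary and uterus, with 1 point for each evaluated gene but 1, triangles for bounds, a bar at the median of the points of each family and dashed lines at 2-fold. In liver 1 gene (*Ces2f*, a bound) lies above the upper dashed line, in ovary no point lies beyond the lines, and 12 genes of 4 families lie above it in uterus.

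Carboxylesterases were above all liver genes, as 15 of 17 were higher in liver than in ovary and 14 higher than in uterus. *Ces1d*, a triacylglycerol hydrolase of the liver, had a level of 4.45 and 4.52 in control and BHPF liver, −2.67 and −2.27 in ovary and 1.46 and 2.13 in uterus. It was 124-fold higher in liver than in ovary (log2 difference 6.95, SE 0.16, adjusted p = 1.8e-05) and 6.46-fold higher than in uterus (2.69, SE 0.16, adjusted p = 8.7e-05). The ovary arrays were the lowest and the uterus arrays lay between. *Ces1e*, which anchors beta-glucuronidase in the endoplasmic reticulum and was picked after its values were seen, had the same order, with 3.22 and 3.47 in liver, 0.29 and 0.46 in uterus, and an ovary signal not well above background on either array. Its level in liver was at least 666-fold that in ovary, and its level in uterus at least 85.0-fold that in ovary (adjusted p = 1.8e-05 and 0.0001).

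*Ces1c*, an esterase secreted into mouse plasma, had a level of 3.94 and 4.06 in control and BHPF liver, −3.20 and −2.68 in ovary, and −4.74 and 0.45 in uterus. *Ces3a* read 4.84 and 4.77 in liver, −3.78 and −3.62 in ovary, and −5.11 and −0.07 in uterus. The ratios of these 2 genes were 0.12 and −0.06 in liver, 0.52 and 0.16 in ovary, and 5.19 (36.5-fold) and 5.05 (33.0-fold) in uterus. *Ces1b* was not well above background on the control uterus array and had a level of −2.06 on the BHPF uterus array, at least 13.4-fold higher. *Ces2a*, a hydrolase of drug esters, was at least 9.19-fold higher, *Ces1f* at least 4.41-fold, *Ces3b* at least 4.34-fold and *Ces1g* at least 4.09-fold. In all, 7 of 13 evaluated carboxylesterases were at least 2-fold higher on the BHPF uterus array, and the family's median ratio there was at least 2.03. The other 6 lay between 0.08 (*Ces2g*) and 0.66 (*Ces1d*).

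The same esterases showed no such gap in liver. The 16 evaluated carboxylesterases had a median liver ratio of 0.09, from −0.11 (*Ces4a*) to a bound of 1.17 for *Ces2f*. *Ces2f* was not well above background on the control liver array and had a level of −4.45 on the BHPF liver array, at least 2.25-fold higher. It is the 1 gene that passed 2-fold in liver, it was not well above background on either uterus array or on the BHPF ovary array, and the call is lost with quantile normalization or with the 50th percentile. In ovary the median of 13 was 0.00, and the measured ratios ran from −0.42 (*Ces2c*) to 0.52 (*Ces1c*). Those of *Ces2b*, *Ces2f* and *Ces4a* there are bounds and may lie lower. *Ces5a*, known as cauxin, a urinary esterase of cats, was the family's 1 ovary gene. It read −5.10 and −5.02 on the ovary arrays and was not well above background elsewhere, so that the ovary excess is at least 1.15-fold over liver and at least 1.30-fold over uterus.

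Of 5 alcohol dehydrogenases 4 were higher in liver than in ovary, and 4 higher in liver than in uterus. *Adh1*, the class I enzyme that oxidizes ethanol and retinol, had a level of 4.84 and 5.05 in control and BHPF liver, 2.29 and 2.14 in ovary and 2.58 and 2.42 in uterus. Liver was 6.62-fold above ovary (2.73, SE 0.12, adjusted p = 3.4e-05) and 5.44-fold above uterus (2.44, SE 0.12, adjusted p = 4.7e-05), and ovary and uterus did not pass against each other (adjusted p = 0.11). *Adh7*, the class IV enzyme of epithelia that oxidizes retinol, read 0.19 and 0.24 in liver, −2.08 and −2.09 in uterus and −4.64 and −4.85 in ovary, so each tissue differed from the next. *Adh5*, the glutathione-dependent formaldehyde dehydrogenase present in most cells, had the smallest range of the family over the control arrays, from −0.45 in liver to −2.41 in uterus. *Adh6a*, picked after its values were seen, was 1 of 2 genes of the 66 that were higher in uterus than in both other organs, by 8.89-fold over liver and 9.71-fold over ovary (adjusted p = 0.00012 and 0.00034). The other was *Aldh1a3*.

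Within tissues 4 of the 5 alcohol dehydrogenases differed little, with ratios from −0.16 (*Adh1*) to 0.31 (*Adh6a*) in uterus. *Adh4*, the class II enzyme, was the exception in uterus. Its level was 3.32 and 3.54 in liver and −5.11 and −5.28 in ovary, while the control uterus array was not well above background and the BHPF uterus array read −3.39, at least 4.15-fold higher. Liver ratios of the family ran from 0.05 to 0.22 and ovary ratios from −0.22 to 0.16.

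Of 20 aldehyde dehydrogenases, 11 were higher in liver than in ovary and 6 lower, and against uterus 12 were higher in liver and 4 lower. The members that make retinoic acid from retinaldehyde took different tissues. *Aldh1a1* had a level of 4.48 on both liver arrays, 3.53 and 3.57 in control and BHPF ovary and 2.38 and 2.79 in uterus. *Aldh1a2* read −2.67 and −2.05 in liver, 2.23 and 2.30 in ovary and 2.52 and 2.53 in uterus. *Aldh1a3* read −2.85 and −2.68 in liver, −0.46 and −0.23 in ovary and 0.52 and 0.91 in uterus. *Aldh1a1* was thus highest in liver, and *Aldh1a2* and *Aldh1a3* were lowest there. The liver deficit of *Aldh1a2* was 24.8-fold against ovary and 29.6-fold against uterus (adjusted p = 2.8e-05 and 2.6e-05), that of *Aldh1a3* 5.36-fold and 11.2-fold (adjusted p = 6.2e-05 and 2.7e-05). The uterus excess of *Aldh1a3* over ovary was 2.08-fold (adjusted p = 0.0027), and it fell under 2-fold without the BHPF uterus array (0.97), with normexp background correction (0.96) and with the 50th percentile (0.92).

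*Aldh8a1*, of tryptophan breakdown, had a level of 4.09 and 4.16 in liver and −4.05 and −4.03 in ovary, 288-fold apart (adjusted p = 0.00016). *Aldh1l1*, the cytosolic 10-formyltetrahydrofolate dehydrogenase, read 4.96 and 4.95 in liver, 1.36 and 1.37 in ovary, and −0.07 and 1.06 in control and BHPF uterus. *Aldh1a7*, a close relative of *Aldh1a1*, read 2.75 and 2.81 in liver, −1.80 and −1.23 in ovary, and −4.93 and −3.06 in uterus. The last 2 genes and *Aldh8a1*, with −4.64 on the control and −2.33 on the BHPF uterus array, were the aldehyde dehydrogenases that passed 2-fold in uterus, at 2.19-fold (*Aldh1l1*), 3.65-fold (*Aldh1a7*) and 4.98-fold (*Aldh8a1*). Of the other 17, the measured ratios ran from −0.34 to 0.41, *Aldh1a1* being highest. That of *Aldh3b2* (−0.25) is a bound and may lie lower.

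Of the remaining aldehyde dehydrogenases, *Aldh2*, the mitochondrial enzyme that clears acetaldehyde, had a level of 4.13 and 4.26 in liver, 2.25 and 2.48 in ovary and 2.52 and 2.42 in uterus. Liver was 3.55-fold above ovary and 3.30-fold above uterus, and both fell just under 2-fold with quantile normalization (0.97 and 0.93). *Aldh3a2*, which oxidizes fatty aldehydes, was the most even gene of the family, from 0.32 in control ovary to 0.78 in control liver, with ratios of 0.48, 0.31 and 0.12 in liver, ovary and uterus. The proline pathway split, as *Aldh18a1*, a gene of proline synthesis, was 12.0-fold higher in ovary than in liver, and *Aldh4a1*, of proline breakdown, was 11.1-fold higher in liver (adjusted p = 4.3e-05 and 0.00016). Both were picked after their values were seen. *Aldh4a1* had the lowest liver ratio of the 66 genes, −0.73, from a level of 3.13 on the control to 2.39 on the BHPF array. The probes of *Aldh7a1*, of lysine breakdown, disagreed in uterus, with a bound of −2.54 and a ratio of −0.14. Those of *Aldh3a1*, known as a corneal protein, also disagreed there, with a bound of −1.38 and a ratio of −0.05. In both genes the lower value came from a probe that on the BHPF uterus array was not well above background, and the other probe gives the ratio of the gene.

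Among the aldo-keto reductases of steroids, *Akr1d1*, the 5-beta reductase of bile acid synthesis, had a level of 2.33 and 2.55 in control and BHPF liver and was not well above background on the other 4 arrays, at least 357-fold higher in liver than in ovary and at least 236-fold higher than in uterus (adjusted p = 3.1e-05 and 4e-05). *Akr1c6*, a 17-beta-hydroxysteroid dehydrogenase of the liver, read 4.69 and 4.83 in liver and −4.30 and −4.23 in ovary. On the control uterus array it was not well above background, and on the BHPF uterus array it read −0.71, at least 34.1-fold higher. It was the 1 aldo-keto reductase of 14 evaluated that passed 2-fold in uterus. The measured ratios of the others ran from −0.61 (*Akr1b7*) to 0.39 (*Akr1b8*). Those of *Akr1cl* (−0.23) and *Akr1c21* (0.0) are bounds and may lie lower.

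*Akr1c18*, the 20-alpha-hydroxysteroid dehydrogenase that inactivates progesterone, had a level of 0.34 and 0.97 in control and BHPF liver, −1.80 and −2.64 in ovary, and −4.54 and −4.65 in uterus. Liver was higher than ovary by 7.33-fold, and ovary higher than uterus by 5.18-fold (adjusted p = 0.001 and 0.0052). Its ratio was 0.63 in liver and −0.84 in ovary, the lowest measured ovary ratio of the 66 genes. *Akr1cl* was the reverse of the liver genes. It read 3.51 and 3.62 on the ovary arrays and −4.84 on the control uterus array, and was not well above background on the liver arrays or on the BHPF uterus array. Ovary was at least 455-fold above liver (adjusted p = 0.00012). It was also higher than uterus (adjusted p = 0.00061), where 1 of 2 arrays measured it, so no fold is given. The ovary ratio was 0.11.

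*Akr1b3*, aldose reductase, which turns glucose into sorbitol, had a level of 2.03 and 2.68 in control and BHPF liver, 3.14 and 3.33 in ovary and 2.40 and 2.26 in uterus, and in the fit over both arrays of a tissue no pair was 2-fold apart. *Akr1b8* did not pass between any pair of tissues either. *Akr1b7*, which reduces the aldehyde left by side-chain cleavage of cholesterol, was 4.27-fold higher in liver than in ovary and 5.12-fold higher than in uterus (adjusted p = 0.00036 and 0.00026), with a level of −1.82 on the control and −2.43 on the BHPF uterus array. The family's median ratios were 0.10 in liver, −0.03 in ovary and −0.03 in uterus.

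Of the flavin-containing monooxygenases, *Fmo5* was 33.1-fold above ovary and 31.8-fold above uterus in liver (adjusted p = 1.8e-05 and 2e-05), and its 3 probes ran from −0.34 to 0.69 in the uterus ratio and from −0.18 to 0.92 in the ovary ratio. *Fmo1* took the order liver, uterus, ovary, with 1.58 and 1.91, 0.18 and 0.14, and −2.58 and −2.41.

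*Fmo2*, the main form of the lung, was shared by liver and uterus, at 1.32 and 1.83 in control and BHPF liver, 1.35 and 1.67 in uterus and −2.62 and −1.94 in ovary. It was 14.4-fold higher in liver and 13.8-fold higher in uterus than in ovary (adjusted p = 2.3e-05 and 0.0001). It was higher on the BHPF array in each tissue, with ratios of 0.51, 0.67 and 0.32, and the ovary ratio was the highest of the 66 genes there. In the test over the 3 tissues *Fmo2* had an unadjusted p of 0.0044, which did not pass after adjustment. For *Fmo4*, counted among the genes higher in uterus than in ovary, neither of these tissues was well above background, so no fold is given.

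Aldehyde oxidases came from 1 run of neighbouring genes and took different organs. *Aox3*, the main form of mouse liver, had a level of 3.20 and 3.17 in control and BHPF liver, 1.59 and 1.63 in uterus and −2.82 and −3.25 in ovary. It was 74.6-fold higher in liver and 25-fold higher in uterus than in ovary (adjusted p = 1.8e-05 and 0.0001). *Aox1*, which also oxidizes retinaldehyde, read 1.2 and 1.58 in liver, −0.08 and −0.02 in ovary and 0.68 and 1.15 in uterus, with liver 2.72-fold above ovary (adjusted p = 0.00038). *Aox2* and *Aox4* were ovary genes. They read −2.30 and −2.14 (*Aox2*) and −3.31 and −3.18 (*Aox4*) on the ovary arrays and were not well above background on any other array, so that ovary was at least 8.27-fold and 4.07-fold above liver and at least 9.29-fold and 4.57-fold above uterus. No aldehyde oxidase passed 2-fold with BHPF in any tissue, with ratios from −0.42 to 0.47.

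Over all families the middle of the genes was close to that of all genes, except for this tail in uterus. The median ratio in liver was 0.08, against 0.00 for all genes, and with the 50th percentile it was −0.24 while that of all genes was −0.30. In ovary both medians were 0.01. In uterus the median was 0.14, against 0.00 for all genes. Within 0.5 of 0 on the log2 scale lay 48 of 60 genes in liver, 56 of 60 in ovary and 43 of 58 in uterus.

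The genes higher on the BHPF uterus array were, as the scanner files are named, mostly those with a large excess of liver over uterus in the control mice. Of the 66 genes 14 were at least 64-fold higher on the control liver than on the control uterus array, with signals taken as they stood, and all 12 of these that could be evaluated were at least 2-fold higher on the BHPF uterus array, with a median ratio of at least 2.76. Between 8-fold and 64-fold lay 7 evaluated genes, of which *Aldh1l1* passed. Under 8-fold lay 39 evaluated genes, of which none passed, with a median of 0.01. Among all genes the same classes gave 239 of 291 (82.1%), 18 of 435 (4.14%) and 114 of 15468 (0.737%) at least 2-fold higher, out of 390 genes in the first class before evaluation. A gene not well above background on the control uterus array was evaluated only where the BHPF array was, which by itself favours high ratios. The 2 quantities also share the control uterus array, which alone would tie a low control level to a high ratio. Among genes well above background on the control uterus array, a limit chosen after seeing the data, 4 of 4 of the members and 124 of 174 of all genes (71.3%) in the first class were higher. With the uterus arrays exchanged, also chosen after seeing the data, the first class held 7 evaluated members, all at least 2-fold lower, and 131 of 167 of all genes (78.4%) were lower. Between 8-fold and 64-fold, 6 of 13 members (46.2%) and 110 of 561 of all genes (19.6%) were then lower. Under 8-fold none of 38 members and 0.841% of all genes were. As the scanner files are named, 1 of 46 was at least 2-fold higher in uterus without the genes at least 64-fold higher in liver, and the median was 0.03.

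**Figure D3:**
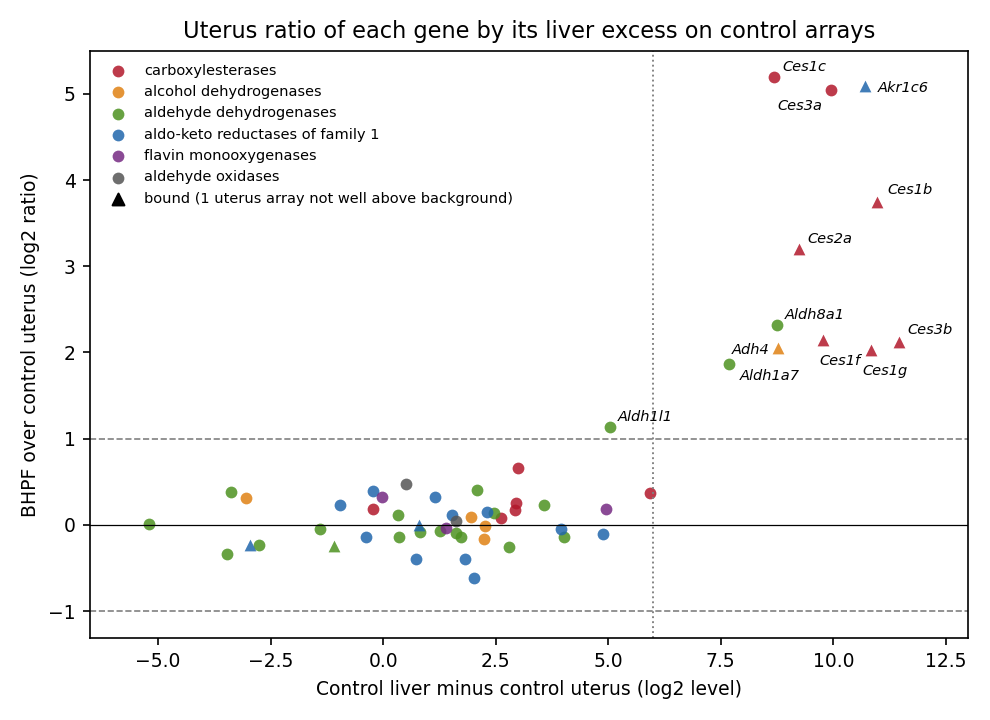
Ratio of the BHPF over the control uterus array (log2) against the control liver minus the control uterus level (log2), with 1 point for each gene evaluated in uterus but 1, coloured by family, triangles for bounds, dashed lines at 2-fold and a dotted line at 64-fold. All 11 genes drawn to the right of the dotted line lie above 2-fold, and 1 gene to its left does.

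Liver cell markers moved in the same way. On the BHPF uterus array 22 of 24 were higher by at least 2-fold and none lower, the median ratio was at least 3.72, and the most abundant was *Alb*, the gene of serum albumin, with a level of −0.92 on the control and 3.36 on the BHPF uterus array. The exceptions were *Rbp4* (0.40) and *Vtn* (0.95). On the control uterus array 20 of the 24 were well above background, *Rbp4* being the most abundant, and *Fga*, *Cps1*, *Cyp7a1* and *Hamp* were not, while on the BHPF uterus array all 24 were. In ovary 0 of 22 evaluated markers were 2-fold higher or lower, and *Fga* and *Hamp* had no signal well above background there. Expressed as a share of the level in control liver, the linear excess of the BHPF over the control uterus array was 0.494% (*Ces3b*) to 8.70% (*Ces1c*) for the 13 genes, with a median of 1.29%. Read as the authors' table is headed, this excess lies on the control array. For the 22 markers it was 0.537% (*Fga*) to 15.6% (*Ttr*), with a median of 5.88%. Their part in the uterus result was not tested, and in pooled tissue more cells of a type and more RNA per cell cannot be told apart.

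Of 22 other carbonyl reductases and short-chain dehydrogenases, 16 were higher in liver than in ovary and 3 lower. Against uterus 15 were higher in liver and 4 lower. Of all genes, 20.8% were higher and 23.7% lower in liver than in ovary, and 19.1% and 22.2% against uterus. These shares are also the background of the lists that follow. *Cbr1*, a carbonyl reductase of quinones, had ratios of 0.19, −0.12 and −0.24 in liver, ovary and uterus, and *Dhrs3*, which returns retinaldehyde to retinol, had −0.09, 0.10 and 0.16. At least 2-fold higher were *Sord* in ovary (1.01) and *Rdh7* in uterus (3.22), a retinol dehydrogenase with a level 8.32 higher in liver than in ovary. Of 14 other esterases, lipases and epoxide hydrolases, 10 were higher in liver than in ovary and 9 higher than in uterus, and none was lower. *Aadac*, *Pon1* and *Lipc* were at least 2-fold higher on the BHPF uterus array, as bounds of 3.21, 5.12 and 1.92, and *Ephx1*, microsomal epoxide hydrolase, had 0.55, 0.02 and 0.17. 

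Of 13 genes for electron donors, amine oxidases and the molybdenum cofactor, 12 were higher in liver than in ovary and 11 higher than in uterus. *Maoa* was lower in liver than in both. None of the 13 passed 2-fold with BHPF in any tissue. *Por*, the reductase that feeds cytochrome P450, had ratios of 0.24, −0.11 and 0.32, and *Mocs2*, of molybdopterin synthesis, had 0.16, 0.01 and 0.24. Of 12 transcription factors of drug metabolism, 9 were higher in liver than in ovary and 10 higher than in uterus. *Pparg* was lower in liver than in ovary. *Ppara*, the receptor of fatty acids, had ratios of 0.11, 0.04 and 0.44, and *Ahr*, the dioxin receptor, had 0.24, −0.23 and 0.24. At least 2-fold higher in uterus were *Nr1i3* (1.39), the constitutive androstane receptor, and *Hnf4a* (a bound of 2.90), a factor of hepatocytes, and none passed in liver or ovary.

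Part of the genes lie in runs of neighbours, and in the runs given here the neighbours did not all take the same tissue. The carboxylesterases form a run from *Ces1a* to *Ces1g* that ends in *Ces5a*, and a run of *Ces2*, *Ces3* and *Ces4a*. In the first, *Ces1d* and *Ces1e* were 19.2-fold and at least 85.0-fold higher in uterus than in ovary. Their neighbour *Ces1c* did not pass between these tissues (log2 difference 0.8, SE 1.24, adjusted p = 0.64), and its 2 uterus arrays were 5.19 apart. The difference between these neighbours was not tested. In the run *Aox1*, *Aox3*, *Aox4*, *Aox2*, the first pair was higher in liver than in ovary and the second pair higher in ovary than in liver. In the run of alcohol dehydrogenases *Adh6a* was a uterus gene between the liver genes *Adh1* and *Adh4*. Among the aldo-keto reductases, *Akr1c12* took the order liver, ovary, uterus, and *Akr1c13* liver, uterus, ovary.

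Promoters were compared to see whether genes of the same run that differ in tissue also differ upstream. The 250 bases before the start of the gene, from RefSeq on GRCm38.p6, were found for 53 of the 66 genes. Of 85 pairs of genes in the same run, adjacent or not, 3 shared an identical stretch of over 30 bases. The median longest stretch was 8 bases. The stretch was 75 bases for *Akr1c13* and *Akr1c12*, 65 for *Aldh1a1* and *Aldh1a7* and 58 for *Ces1b* and *Ces1c*. *Akr1c13* and *Akr1c12* were both liver genes, yet *Akr1c13* was 2.31-fold higher in uterus than in ovary and *Akr1c12* was 3.46-fold higher in ovary than in uterus (adjusted p = 0.0016 and 0.00035). *Aldh1a1* was 1.90-fold and *Aldh1a7* 19.6-fold higher in liver than in ovary (adjusted p = 0.0011 and 0.00047). *Ces1b* and *Ces1c* had the same pattern, with liver 379-fold and 123-fold above ovary and both higher on the BHPF uterus array. The sequences are shown because they let the shared part be read beside these tissue patterns, in capitals, 5′ to 3′ on the strand of the gene. They lie at chr13:4190937-4191186 (+, *Akr1c13*), chr13:4279400-4279649 (−, *Akr1c12*), chr19:20601718-20601967 (+, *Aldh1a1*), chr19:20727557-20727806 (−, *Aldh1a7*), chr8:93079941-93080190 (−, *Ces1b*) and chr8:93131284-93131533 (−, *Ces1c*).
Akr1c13: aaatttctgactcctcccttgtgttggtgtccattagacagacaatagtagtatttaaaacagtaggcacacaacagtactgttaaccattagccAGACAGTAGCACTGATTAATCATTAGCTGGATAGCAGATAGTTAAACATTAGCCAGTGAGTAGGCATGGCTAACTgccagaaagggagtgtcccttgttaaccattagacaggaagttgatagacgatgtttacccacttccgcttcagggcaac
Akr1c12: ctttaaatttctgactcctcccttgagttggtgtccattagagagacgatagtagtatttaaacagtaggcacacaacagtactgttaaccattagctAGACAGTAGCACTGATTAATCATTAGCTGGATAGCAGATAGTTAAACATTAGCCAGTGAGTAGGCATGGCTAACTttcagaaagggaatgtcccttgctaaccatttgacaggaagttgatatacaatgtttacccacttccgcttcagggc
Aldh1a1: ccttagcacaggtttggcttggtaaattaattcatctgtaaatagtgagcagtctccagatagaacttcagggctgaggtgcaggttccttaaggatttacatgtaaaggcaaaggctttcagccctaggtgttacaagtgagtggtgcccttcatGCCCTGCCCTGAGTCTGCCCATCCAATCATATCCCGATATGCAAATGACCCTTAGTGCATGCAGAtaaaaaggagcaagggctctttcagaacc
Aldh1a7: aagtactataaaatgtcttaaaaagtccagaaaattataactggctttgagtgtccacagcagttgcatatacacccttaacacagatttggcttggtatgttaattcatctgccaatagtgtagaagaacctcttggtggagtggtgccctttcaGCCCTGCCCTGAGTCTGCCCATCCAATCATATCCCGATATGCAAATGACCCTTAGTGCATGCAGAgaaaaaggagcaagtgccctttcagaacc
Ces1b: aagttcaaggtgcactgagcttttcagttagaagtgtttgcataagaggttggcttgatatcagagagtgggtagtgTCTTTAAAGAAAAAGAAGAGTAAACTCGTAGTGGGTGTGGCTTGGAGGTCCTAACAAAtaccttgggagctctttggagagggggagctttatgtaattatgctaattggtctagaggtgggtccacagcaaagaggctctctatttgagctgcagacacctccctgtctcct
Ces1c: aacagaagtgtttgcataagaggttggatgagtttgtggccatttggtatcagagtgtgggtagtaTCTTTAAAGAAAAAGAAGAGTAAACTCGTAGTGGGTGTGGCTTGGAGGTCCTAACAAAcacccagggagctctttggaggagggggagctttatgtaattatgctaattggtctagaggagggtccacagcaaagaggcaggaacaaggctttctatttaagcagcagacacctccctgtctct

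Short motifs were counted in the same windows on both strands. Of the genes at least 64-fold higher on the control liver than on the control uterus array, 11 had a promoter. The letters TTGCNNAA, a form of the C/EBP motif, were in 4 of these 11 (36.4%). They were in 7 of 42 other genes of the families (16.7%) and in 10.8% of all 27025 genes with a promoter. Among the 4 were *Ces1b* and *Ces1c*, whose promoters share a stretch of 58 bases, so their matches may not be independent. GTTAAT, a part of the HNF1 motif, was in 18.2%, 4.76% and 7.49% of the same groups, and AAGGTCA, bound by NR5A1, in 18.2%, 9.52% and 4.70%. TATAAA was in 36.4%, 11.9% and 14.3%. TGACNNNGC, the core of the antioxidant response element, was in 0 of 11 and 4 of 42 genes and in 3112 of 27025 genes in all. A match says that these letters are in the window and not that a factor binds there.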

How the data were processed

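RNA pools of liver, ovary and uterus, 1 per group, were hybridized to one-colour Agilent arrays. The authors used Feature Extraction (9.1 per the labels, 11.5.1.1 in the file headers), and the deposited intensity of a spot is background-subtracted. The deposited log2 table was made by the authors in GeneSpring with a percentile shift whose percentile is not stated, and its column medians ran from −1.66 to −1.18. Scaling, ratios and bounds are described above. Outlier spots were left out, and spots of a probe, then probes of a gene, were averaged in log2, with probes well above background on both arrays preferred. RefSeq GRCm38.p6 named 26762 of 55681 probes (48.1%) by accession. The array design is on mm9, so probes have no coordinates here.

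Tissues were compared with limma 3.58.1 (R 4.3.3, terms for tissue and treatment, eBayes with trend) on 17658 genes, with Benjamini-Hochberg adjustment over all of them. The 2 residual degrees of freedom also hold any difference of treatment effect between tissues. Python 3.11.15, numpy 2.4.6, pandas 2.3.3 and matplotlib 3.10.9 were used, and the calls were tested on simulated data. In the simulation of the fit the BHPF shift was the same in all tissues, so a shift in uterus alone was not covered. Its outcome is not given here.

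The members and gene lists were chosen with earlier results of these data known. Named are genes at least 2-fold apart with BHPF, those with the largest and smallest range over the control arrays in each family, a fixed 25 well-studied members, up to 4 genes with the highest mean level in each other list, and members whose probe ratios differ by over 1. Others were chosen after their values were seen. 1 member is counted but not reported here by name. Alternatives covered background correction (normexp on the median signal with offset 50, as no mean signal is given), scaling, the authors' table, the filter, the bound, the probe rule, the fold, the variance trend and leaving out each array.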

Additional observations from a re-analysis of the deposited data

Results flagged for a closer look

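A pair of genes had ratios of opposite sign in liver and ovary, each beyond 3 times the SD that replicate spots give a ratio. *Akr1c18* was higher on the BHPF array in liver (0.63) and lower in ovary (−0.84), and *Ces2c* was higher in liver (0.51) and lower in ovary (−0.42). With 1 array a group the difference between the tissues was not tested. The ovary value of *Ces2c* comes from 1 of its 3 probes, as the others were not well above background in ovary. That probe had a liver ratio of 0.06, so the opposite signs of *Ces2c* rest on different probes.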

How the results depend on the processing

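Spread between animals was not measured, and signals under the lowest level well above background, from −6.33 to −4.91 over the arrays, allow only bounds. For BHPF against control within a tissue no paired analysis was possible because each group was 1 pool on 1 array. Under the alternatives 121 of 135 counts and medians stayed within 1.5 times the count or 1 SD of replicate spots. Counts between tissues were judged on their total, whichever way the majority lay. Of 897 tissue differences of named genes 867 kept their direction and side of the threshold. Of 135 ratios of named genes 97 stayed within that SD, 26 moved and 12 were reversed. Where the text below gives no reason, the cause was not tested.

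With the authors' table as headed the uterus count was 15, with the 13 genes lower and *Akr1cl* and *Aldh3b2* higher, and the median was −0.14. Ratios were −2.05 (*Adh4*), −5.31 (*Akr1c6*), −1.87 (*Aldh1a7*), −1.13 (*Aldh1l1*), −2.32 (*Aldh8a1*), −5.74 (*Ces1b*), −5.19 (*Ces1c*), −3.17 (*Ces1f*), −3.94 (*Ces1g*), −3.20 (*Ces2a*), −5.05 (*Ces3a*) and −3.89 (*Ces3b*). In *Adh4*, *Akr1c6*, *Ces1b*, *Ces1f*, *Ces1g*, *Ces2a* and *Ces3b* 1 uterus array was not well above background. Their values with that table use the own signal in place of the bound, so their size is uncertain. With genes well above background on both arrays 5 passed in uterus and 0 in liver, since bounds drop out. Lower in uterus were *Akr1cl* with normexp, *Akr1cl* and *Aldh3b2* with own signals or the table's uterus columns exchanged, *Aldh7a1* with all probes averaged, and 1 probe each of *Aldh3a1* and *Aldh7a1* with probes in place of genes. Without members at least 64-fold higher in control liver, chosen after seeing the data, 1 passed in uterus as the scanner files are named. The liver count was 1 with the 50th percentile (*Aldh4a1*, lower; median −0.24, all genes −0.30), 0 with quantile normalization or a 4-fold threshold and 2 with no filter (*Ces2f* and *Aox2*). The ovary count was 1 with that table (*Ces2f*, lower), also with its uterus columns exchanged, which was chosen after seeing the data, 1 with the own signal in place of the bound (*Ces2f*, lower) and 1 with no filter (*Ces3b*, higher).

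Leaving out each array in turn, the lone array of its tissue being assumed to vary like the others, gave 57 to 59 members different between liver and ovary, 48 to 51 between liver and uterus, 22 to 38 between uterus and ovary, and 0 with a BHPF effect. Higher and lower in uterus than in ovary were 14 and 17 with the 50th percentile, 13 and 16 with quantile normalization, 18 and 19 with adjusted p alone, 12 and 12 without the variance trend, 13 and 18 without the BHPF uterus array, 26 and 12 without the control uterus array, and 14 and 19 on the control arrays alone, chosen after seeing the data and with no test. Among the 30 tissue calls lost were those of *Aldh7a1*. Between uterus and ovary its log2 difference was 1.01 without the control ovary array and 0.55 without the control uterus array, against 1.2 with all arrays. Between liver and uterus it was 0.63 without the BHPF liver array and 0.44 without the BHPF uterus array, against 1.1. The calls of *Ces1f*, *Aldh1a7* and *Aldh3a1* between uterus and ovary were lost without either ovary array, while the fitted differences stayed about as large. They were 2.48, −2.68 and −2.34 without the BHPF ovary array, and 3.3, −2.29 and −2.13 without the control ovary array. With all arrays they were 2.89, −2.48 and −2.23. The ovary signals of *Ces1f* were not well above background. The log2 difference of *Aox3* between liver and uterus fell to 0.87 with quantile normalization (adjusted p = 0.0062).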

Other observations

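*S100a8* and *S100a9*, the calprotectin subunits of neutrophils, had ratios of −2.73 and −2.27 in liver, −3.13 and −2.55 in ovary and −1.52 and −1.0 in uterus. Uterus ratios in these observations are as the scanner files are named, and the authors' table as headed turns their sign. Of the 8 evaluated leukocyte markers 3 were at least 2-fold lower in liver, 2 in ovary and 2 in uterus, none was higher, and *Csf1r*, a macrophage gene, had −0.24, −0.20 and −0.20. Haemoglobin and other erythroid markers had median ratios of −0.14, −0.40 and 0.58 in liver, ovary and uterus, with none at least 2-fold apart.

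In uterus 3 of 10 adipocyte markers were at least 2-fold lower on the BHPF array, with a median of −0.59, and in ovary 2 of 11 were higher, with a median of −0.02. *Adipoq* had a ratio of −3.31 in uterus and 1.35 in ovary, *Cfd* −2.71 and 2.05, *Fabp4* −1.46 and 0.04, and *Pck1* 0.97 and −0.06. In liver 1 of 10 was lower (*Cfd*, −1.63). Of 6 evaluated pancreas markers in uterus 1 was higher (*Cela2a*, a bound of 4.44) and 1 lower (*Cela1*, −1.46). Of 3 evaluated intestine markers there 1 was higher (*Fabp2*, 1.71), in ovary 2 of 4 were lower, and in liver 1 of 3 was higher (*Vil1*, 1.60) and 1 lower (*Cdx2*, a bound of −1.69). Ciliated and oviduct cell markers held 1 of 8 lower in ovary (*Foxj1*, −1.16), with a median of −0.54. The steroidogenic, smooth muscle, uterus and ovary markers and those of skeletal muscle had none at least 2-fold apart in ovary or uterus, with *Cyp17a1* at −0.10 in ovary, *Acta2* at 0.01, *Msx1* at 0.24 and *Acta1* at −0.02 in uterus, and in liver *Zp3* (at least 1.65) and *Myl1* (at least 1.14) were higher.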
